A study of Mus musculus with 6 samples.

Results

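The serpins, a superfamily of protease inhibitors and related carrier proteins, were followed in mouse liver under a diet that lacks methionine and choline. The 39 genes described here are the rows whose symbol begins with Serpin, a clade letter from a to i and a number, and whose counts added up to at least 10 over 6 libraries. Of 21899 genes in the table, 62 carry such a symbol, and 23 of these had too few counts: 15 had no count at all and the highest total among the others was 9. The lowest total among the 39 genes was 10, that of Serpinb1c. By clade there were 21 genes in clade A and 9 in clade B, and the other clades had 1 or 2 each.

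The libraries were made from liver polyA RNA of C57BL6J mice, all labelled wild type. For 6 weeks one group ate the methionine- and choline-sufficient diet (MCS, 3 libraries) and the other the methionine- and choline-deficient diet (MCD, 3 libraries), and the comparison asks how the liver differs between the diets. The MCD diet is used in mice as a nutritional model of steatohepatitis, and it is known to cause loss of body weight. Nothing in the labels ties each library to its own animal; the p-values therefore rest on the spread among these 6 samples, part or all of which may be technical.

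An inhibitory serpin holds out an exposed stretch near its carboxyl end, the reactive centre loop, as bait. The target protease cuts this loop and is trapped in a covalent complex, so the residues of the loop set which protease is caught. Hepatocytes make most serpins of blood plasma, among them α1-antitrypsin, antithrombin, heparin cofactor II, α2-antiplasmin and the C1 inhibitor, and several rise in the acute phase response to injury. The clade B serpins lack a classical secretion signal and protect cells against proteases that leak from granules or lysosomes. A few members inhibit nothing, such as the hormone carriers Serpina6 and Serpina7 and the collagen chaperone Serpinh1.

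Library totals ran from 16615469 to 21322771 counts, so that 3 counts, the limit that a count of 0 allows, correspond to 0.104 to 0.227 CPM, the unit of level used here, in which counts are scaled to TMM-adjusted library totals, a limit that covers counting error only. Within the MCS diet, libraries MCS 1 and MCS 2 stood apart from MCS 3 in acute phase genes. Saa1, a serum amyloid A gene, had 4855, 3907 and 30.5 CPM in MCS 1, 2 and 3. Of 35 tested acute phase genes, 29 were lower in MCS 3 than in both other MCS libraries, 6 of them over 10-fold lower than the mean of these 2. The list also holds negative acute phase genes, which fall in that response: Alb, Ttr, Trf, Rbp4, Ahsg and Apoa1. Trf, Ahsg and Apoa1 were among the 29, while Alb, Ttr and Rbp4 were higher in MCS 3 than in both other MCS libraries. Among the 28 serpins tested, 14 were lower in MCS 3 than in both other MCS libraries and 7 were over 1.5-fold lower than the mean of these. The same shares over all tested genes were not counted, so neither the acute phase counts nor the serpin counts can be set against them. With MCS 3 kept as the only MCS library, a fit in which its spread is assumed to be that of the other libraries, 74 of all genes and 0 serpins were called, so each result below is also read against MCS 3 by its library values. Liver markers were high in every library: 10 hepatocyte markers summed to 87093 to 109368 CPM on MCS and 59577 to 96294 on MCD, with 57.7% to 75.5% of the sum in Alb. Of these 10 markers, 7 were lower in every MCD library than in any MCS library, and 3 of them, Tat, Pck1 and Cyp2e1, were called lower (log2 fold changes −1.39, −1.33 and −1.03). Cyp3a11 was called higher (1.42), and Alb and Ttr overlapped. Marker sums went from 450 to 587 CPM on MCS to 1635 to 3803 on MCD for 14 macrophage markers, of which 12 were highest in MCD 3, 10 were called higher and 2, Clec4f and Timd4, lower. They went from 161 to 286 to 350.0 to 1660.0 for 9 stellate cell markers, all 9 highest in MCD 3 and 4 called higher. The sum of 6 bile duct markers went from 41.0 to 65.3 to 193 to 563, but Spp1 alone held 82.7% to 92.6% of it; 5 of the 6 were called higher, and Krt19 overlapped. The sums of 8 endothelial markers overlapped (94.1, 128 and 341 against 69.2, 52.9 and 265). The pancreas genes Prss1, Pnlip and Cpa1 and the mast cell genes Cpa3, Mcpt4, Tpsb2 and Ms4a2 were at 0 in every library. In whole tissue, fewer cells of a type and less RNA per cell cannot be told apart.

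The serpins that fell on MCD were secreted ones of clades A, F and G, such as α1-antitrypsin, contrapsin, α2-antiplasmin and the C1 inhibitor, and those that rose included Serpinb6a, Serpinb6b and Serpinb9, which act inside cells, and Serpinh1. Of the 28 genes with enough counts to be tested, 12 fell, 5 rose and 11 did not pass the threshold, an adjusted p of 0.05 in edgeR's quasi-likelihood test (Benjamini-Hochberg over 12599 genes). Among all tested genes, 9.97% fell and 14.8% rose (24.7% in all), against 42.9% and 17.9% of the tested serpins. The 12 that fell include the near-identical copies Serpina1a to Serpina1e, and 8 fell with the Serpina1 copies counted as 1 gene. The shares, median and gaps given in this paragraph count each copy. The median log2 fold change of MCD over MCS was −0.79 over the tested serpins and 0.015 over all tested genes. The MCS and MCD libraries were fully apart for 20 of the 28 serpins, 15 with MCD below and 5 with MCD above, and for 45.3% of all tested genes (21.3% below and 23.9% above). The plot of levels by library shows these gaps gene by gene.

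**Figure D1:**
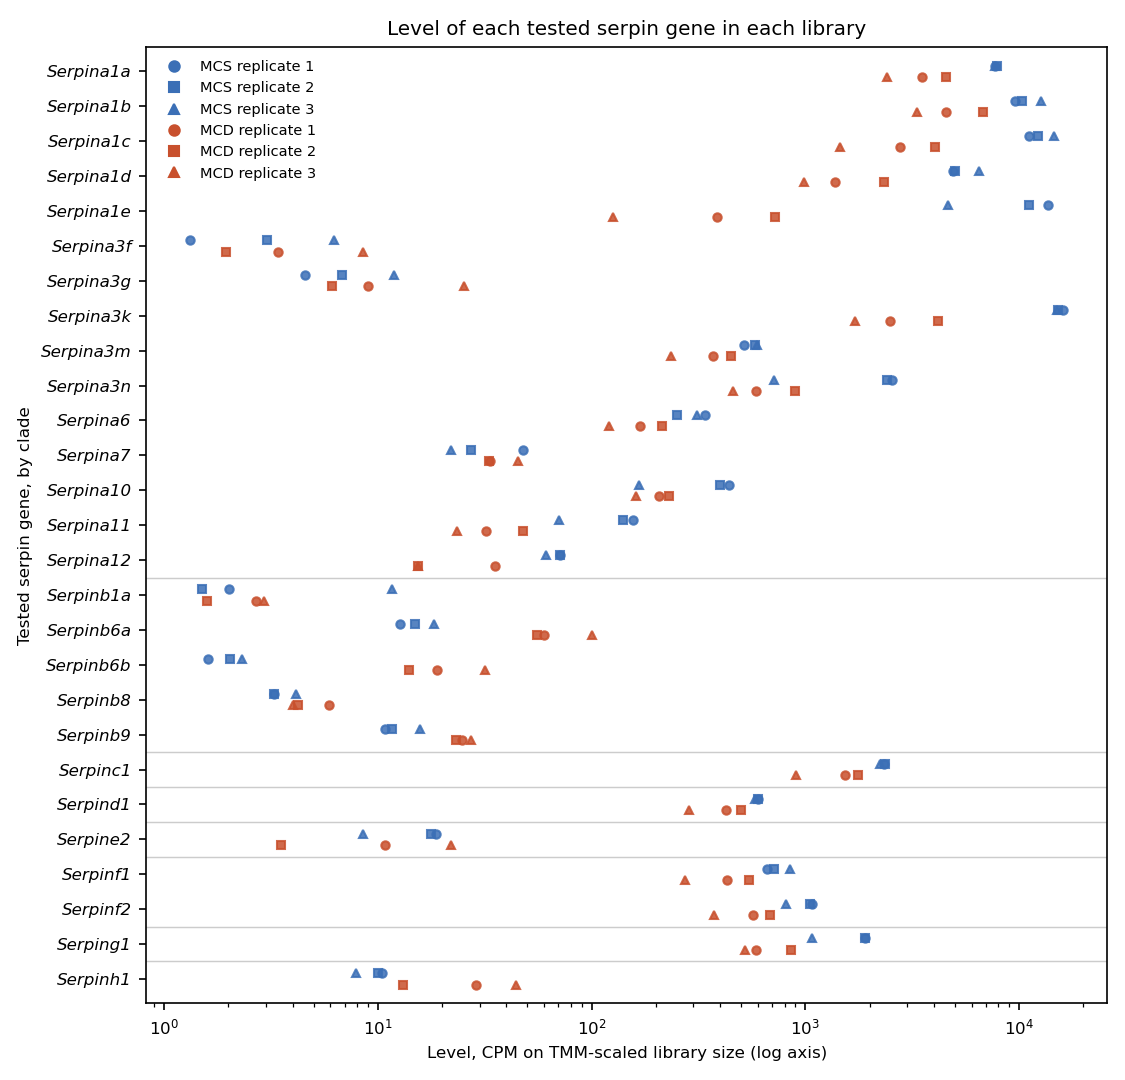
Level of 27 tested serpin genes (rows, grouped by clade) in each of 6 libraries, in CPM on a log axis; blue points are MCS libraries, orange points MCD libraries and the marker shape is the replicate number. Serpina1 and Serpina3k levels lie between 4683 and 16141 CPM in the MCS libraries and lower in the MCD libraries, and Serpinb6a, Serpinb6b and Serpinh1 lie at the low end with MCD to the right.

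The calls were also counted by level, taken as the mean CPM over all 6 libraries, with a limit of 100 CPM that was set after the values were seen. Of 15 tested serpins at or above it, 10 fell, 0 rose and 5 did not pass, while of all 1300 genes at that level 26.7% fell and 5.85% rose. Those 10 include the near-identical copies Serpina1a to Serpina1e. Of the 13 serpins below it, 2 fell, 5 rose and 6 did not pass, and of all 11299 such genes 8.04% fell and 15.8% rose. The 39 genes together held 6.03%, 5.78% and 6.00% of all counts in the MCS libraries and 2.44%, 3.02% and 1.93% in the MCD libraries. Scaling bears on these values: with library size alone the median log2 fold change of all tested genes was 0.57, and 9 serpins fell and 6 rose there. On log2(TPM + 1) the median was 0.53 and 7 serpins fell and 7 rose. The log2 fold changes of the 28 serpins were 0.47 to 0.67 higher with library size alone, and on log2(TPM + 1) they moved by −0.19 to 0.96 (median 0.62).

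**Figure D2:**
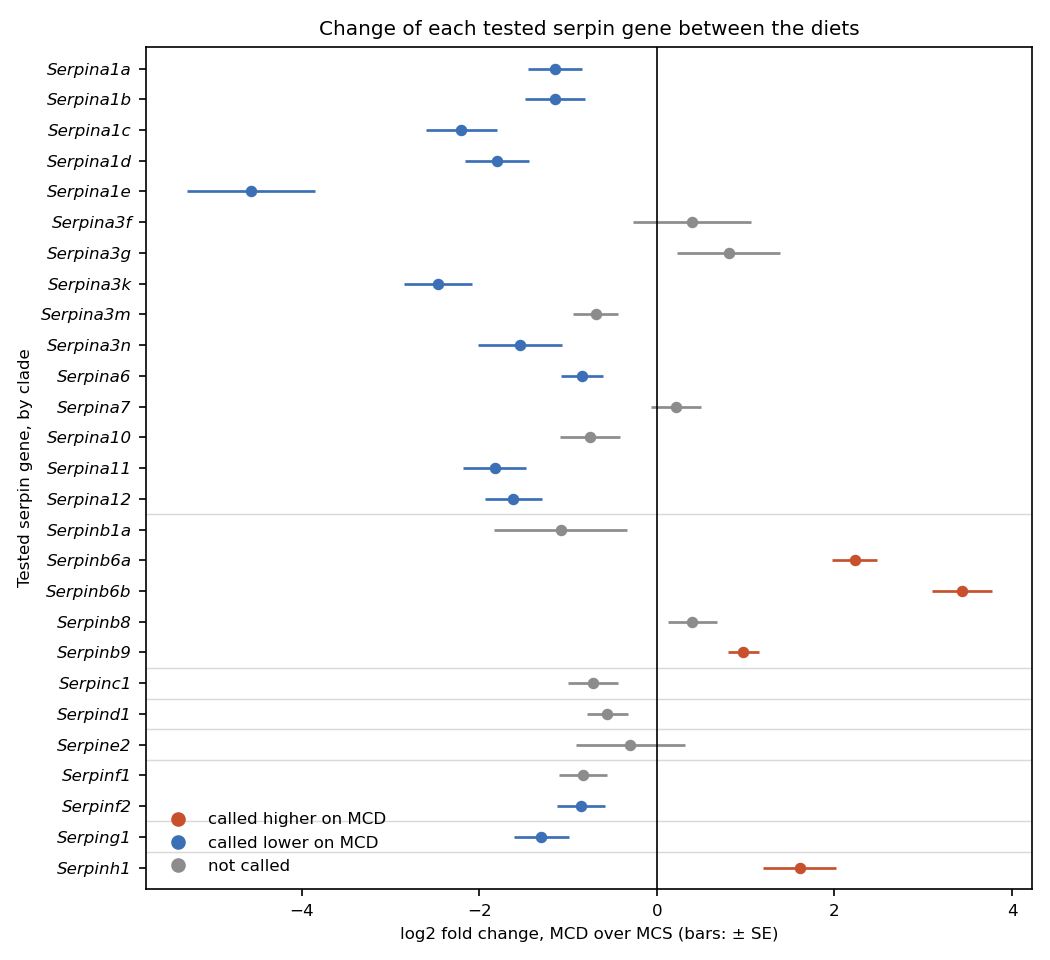
Log2 fold change of MCD over MCS for 27 tested serpins (rows, grouped by clade), with bars for ± SE from edgeR's quasi-likelihood fit; blue genes were called lower, orange genes higher and grey genes not called. The 12 blue genes lie in clades A, F and G, and the 4 orange genes in clades B and H.

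Serpina1 encodes α1-antitrypsin, the main plasma inhibitor of neutrophil elastase. Mice carry several near-identical copies where humans have a single gene, and 5 copies, Serpina1a to Serpina1e, had counts above the limit here. Their annotated coding sequences are 1239 bases each without the stop codon and 96.3% to 98.5% identical in pairs. The stretch that encodes the reactive centre loop is shown because the loop sets the target. It is 5.33% of the coding length and held 9.76% to 47.4% of the differences between a pair of copies, so that most differences lay outside it in every pair. The stretch runs from coding base 1087 to 1152, counted from the start codon, in the GENCODE M21 annotation of GRCm38 (chromosome 12, minus strand), and capitals mark the 15 positions at which the 5 copies are not all alike.
Serpina1a: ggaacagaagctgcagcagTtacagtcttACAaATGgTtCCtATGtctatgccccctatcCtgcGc
Serpina1b: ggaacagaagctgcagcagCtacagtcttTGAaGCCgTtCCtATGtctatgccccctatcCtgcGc
Serpina1c: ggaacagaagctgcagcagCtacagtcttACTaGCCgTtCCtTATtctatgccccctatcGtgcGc
Serpina1d: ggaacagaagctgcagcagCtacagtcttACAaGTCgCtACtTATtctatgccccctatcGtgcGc
Serpina1e: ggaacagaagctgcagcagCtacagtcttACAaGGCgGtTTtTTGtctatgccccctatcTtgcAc
Pairs of copies differed at 4 of 66 bases (Serpina1c and Serpina1d) to 10 (Serpina1a and Serpina1e). Over the whole coding sequence the copies are nearly alike, so the authors' counting could split reads between them, and single copies are less certain than their sum.

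Summed over the copies, Serpina1 stood at 47047, 46620 and 46079 CPM in MCS 1, 2 and 3 and at 12599.9, 18464 and 8338 CPM in MCD 1, 2 and 3. The MCS libraries lay within a narrow band and every MCD library lay far under it. The sum fell by 1.83 on the log2 scale (SE 0.37, adjusted p = 0.0102), a 3.55-fold drop. The call ended without MCD 1 (log2 fold change −1.80, adjusted p = 0.0602) and on log2(TPM + 1) (−1.25, adjusted p = 0.0656). Unlike several plasma serpins described below, the summed level was as high in MCS 3, where the acute phase genes were low, as in MCS 1 and MCS 2.

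Each of the 5 copies fell, by amounts that ranged from 2.21-fold to 23.9-fold. Serpina1e had 13669, 11112 and 4683 CPM in the MCS libraries and 386, 722 and 126 in the MCD libraries. MCS 3 was 2.65-fold under the mean of the other MCS libraries but above every MCD library, and the log2 fold change was −4.58 ± 0.72 (adjusted p = 0.00445). Serpina1c had 11194, 12298 and 14594 CPM on MCS and 2763, 4050.0 and 1459 on MCD, with no overlap (−2.20 ± 0.40, adjusted p = 0.00658). Serpina1d had 4898, 5041 and 6479 CPM on MCS and 1383, 2342 and 985 on MCD (−1.80 ± 0.36, adjusted p = 0.00921). In both genes MCS 3 was the highest library, the reverse of Serpina1e.

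Serpina1a and Serpina1b fell least among the copies. Serpina1a had 7701, 7856 and 7689.8 CPM on MCS and 3515, 4559 and 2419 on MCD (−1.15 ± 0.30, adjusted p = 0.0265). Serpina1b had 9586, 10313 and 12633 CPM on MCS and 4552, 6791 and 3351 on MCD (−1.15 ± 0.34, adjusted p = 0.0371). The diets did not overlap for either copy. The Serpina1d call ended without MCD 1 (adjusted p = 0.0528), the Serpina1a call without MCS 1, MCS 2, MCS 3 or MCD 1 in turn (0.0916, 0.0975, 0.0561 and 0.111), and the Serpina1b call without MCS 1, MCS 2, MCS 3, MCD 1 or MCD 3 (0.095, 0.109, 0.0932, 0.149 and 0.0541). On log2(TPM + 1) the adjusted p was 0.130 for Serpina1a and 0.193 for Serpina1b.

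The share that each copy took of Serpina1 RNA was also set against the diets, and its library values did not overlap for 4 of the 5 copies. Serpina1e made up 29.1%, 23.8% and 10.2% of the summed counts in MCS 1, 2 and 3 and 3.06%, 3.91% and 1.51% in MCD 1, 2 and 3. Serpina1b held 20.4%, 22.1% and 27.4% on MCS and 36.1%, 36.8% and 40.2% on MCD, and so became the largest copy in every MCD library. The share of Serpina1a went from 16.6% ± 0.245 to 27.2% ± 2.24 (SD, n = 3), that of Serpina1c from 27.3% ± 4.02 to 20.5% ± 2.56, and that of Serpina1d was 11.8% on both diets. In a two-sided exact permutation test over libraries, which with 3 against 3 cannot go below 0.1, the share of Serpina1a, Serpina1b, Serpina1c and Serpina1e each reached p = 0.1 and that of Serpina1d p = 0.9 (0.125 and 0.9 adjusted over 5 shares). The shares are parts of 1 sum, so a lower Serpina1e share by itself makes the other shares larger. The 5 tests are therefore not independent of each other. Shares within the sum do not depend on the scaling of the libraries, but they do depend on how the counting split shared reads.

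**Figure D3:**
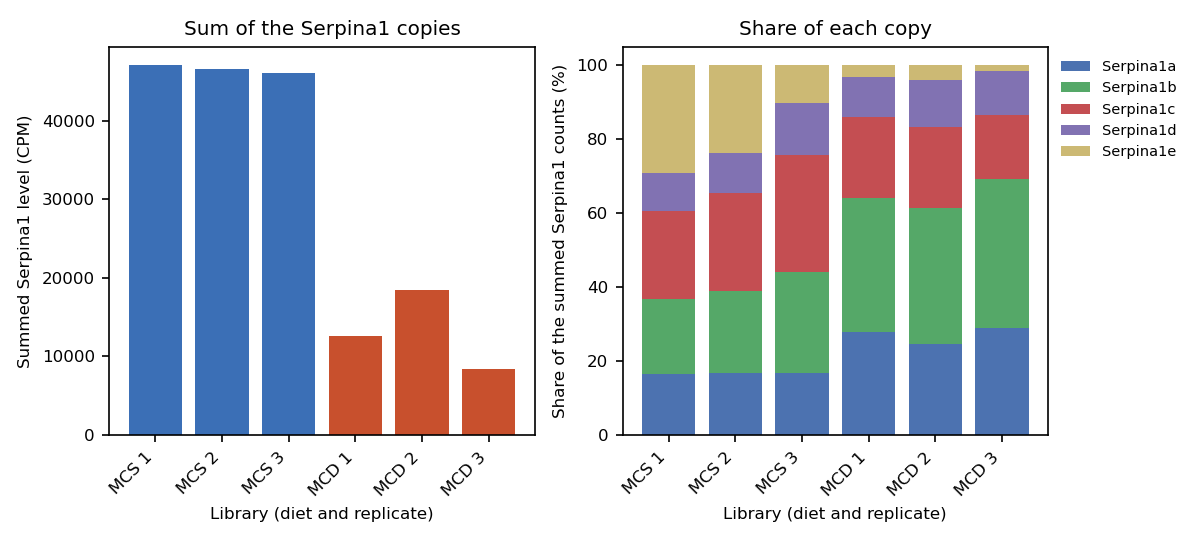
Left, the summed Serpina1 level in CPM for each of 6 libraries; right, the share in percent that each of 5 copies takes of that sum in the same libraries. The sum is between 46079 and 47047 CPM in the MCS libraries and between 8338 and 18464 in the MCD libraries, and the Serpina1e share is 10.2% or more on MCS and 3.91% or less on MCD.

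A matching window of 100 bases upstream of each start is also near-identical among the copies. It is shown because the 5 copies fell together but by different amounts. Each window ends with the same shared stretch, so its place before the annotated start differs: −109 to −10 in Serpina1a, −114 to −15 in Serpina1b, −115 to −16 in Serpina1c, −104 to −5 in Serpina1d and −166 to −67 in Serpina1e. They are from RefSeq's GRCm38.p6 annotation, written along the gene's strand (minus) on chromosome 12, and capitals mark that stretch, GTTAATATTCAC, which begins with GTTAAT, the core of the motif bound by the hepatocyte factor HNF1. The positions are chr12:103863629-103863728 for Serpina1a, chr12:103738204-103738303 for Serpina1b, chr12:103904966-103905065 for Serpina1c, chr12:103773638-103773737 for Serpina1d and chr12:103956964-103957063 for Serpina1e.
Serpina1a: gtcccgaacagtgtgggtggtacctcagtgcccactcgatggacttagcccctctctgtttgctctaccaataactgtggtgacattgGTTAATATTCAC
Serpina1b: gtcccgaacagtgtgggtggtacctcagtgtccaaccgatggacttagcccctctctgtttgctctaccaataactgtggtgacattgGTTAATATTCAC
Serpina1c: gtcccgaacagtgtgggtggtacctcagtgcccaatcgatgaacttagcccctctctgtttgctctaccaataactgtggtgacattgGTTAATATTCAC
Serpina1d: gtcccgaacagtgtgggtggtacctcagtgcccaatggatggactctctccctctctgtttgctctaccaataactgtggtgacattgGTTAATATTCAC
Serpina1e: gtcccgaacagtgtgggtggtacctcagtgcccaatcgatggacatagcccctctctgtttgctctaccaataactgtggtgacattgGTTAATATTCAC
Against Serpina1a, the window of 100 bases differed at 3 bases in Serpina1b, 2 in Serpina1c, 6 in Serpina1d and 2 in Serpina1e, all outside the shared stretch. Serpina1a, 1 of the 2 copies that fell least, and Serpina1e, which fell most, differ at 2 of these 100 bases. The windows were matched on the shared stretch, and that of Serpina1e ends at −67, so the bases nearer its start were not compared. Whether promoter bases bear on the size of a fall was not tested. The shared stretch was picked because all 5 copies hold it, so finding it in their windows was set beforehand. It cannot be in more windows than the core within it, so the percentages below do not show that it is specific to these genes. Searched on both strands of 32851 promoter windows of 300 bases, GTTAATATTCAC was found in 5 windows (0.015%), those of the 5 copies, and GTTAAT in 7.10%. Of 31 serpins with a window, 8 held GTTAAT: the 5 Serpina1 copies, Serpina3c, Serpina7 and Serpinb8, of which the last 2 did not pass the test and Serpina3c was too low to test. The motif of STAT factors, which act in the acute phase response, was searched as TTCNNNGAA and found in 8.30% of all windows and in those of Serpina11, Serpina3f, Serpina3g, Serpina3i and Serpinb6a. A match describes letters, not binding.

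In gene order along chromosome 12 (RefSeq, GRCm38.p6) the clade A genes other than Serpina7 form 1 cluster of 28 annotated serpin genes and pseudogenes, 20 of them among the 39 and 14 tested. It begins with Serpina10 and Serpina6, passes through the Serpina1 copies, Serpina11, Serpina9, Serpina12 and Serpina5, and ends with the Serpina3 genes. Of the 14 tested, 10 were lower on MCD and 0 higher, against 9.97% and 14.8% of all tested genes. The 10 include the near-identical copies Serpina1a to Serpina1e. Of these 10, 8 stand from Serpina6 to Serpina12 and 2, Serpina3k and Serpina3n, near the far end. No gene between Serpina12 and Serpina3k was called, and the 2 tested there, Serpina3f and Serpina3g, had log2 fold changes of 0.40 and 0.81. The deepest fall, that of Serpina1e, stands between Serpina1c (−2.20) and Serpina11 (−1.83).

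**Figure D4:**
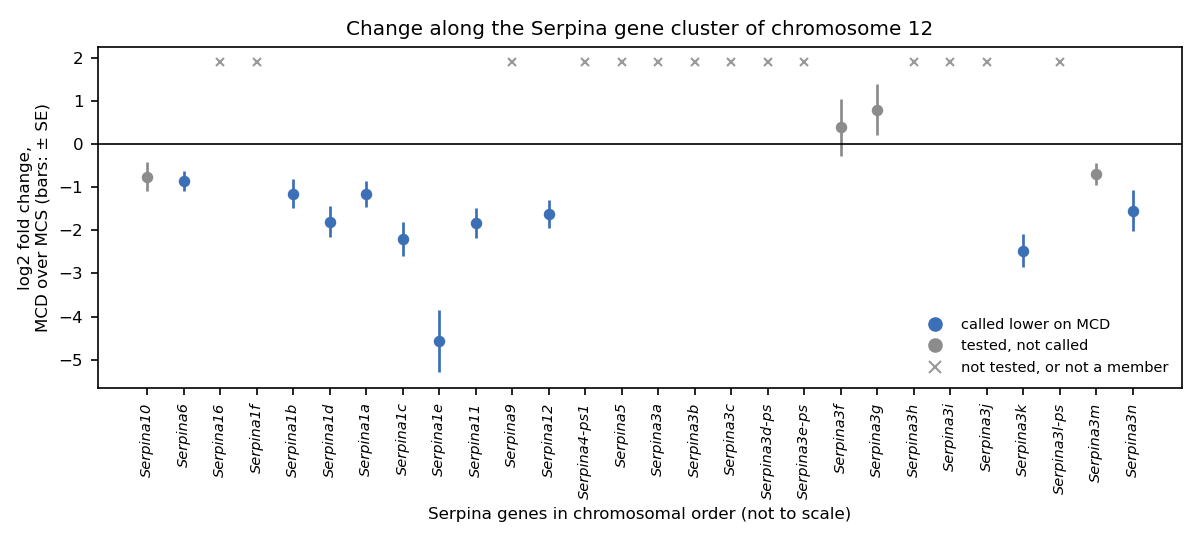
Log2 fold change of MCD over MCS (vertical axis, bars ± SE) for the serpin genes of the chromosome 12 cluster in chromosomal order, with equal spacing that is not to scale; blue genes were called lower on MCD, grey genes were tested and not called, and crosses mark genes that were not tested or not among the 39. The 10 called genes lie between −0.85 and −4.58.

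The Serpina3 genes are the expanded mouse relatives of human α1-antichymotrypsin, and 9 of them are among the 39 genes. Serpina3k, known as contrapsin or kallikrein-binding protein, made up 83.6% to 91.9% of their summed counts on MCS and 70.1% to 75.6% on MCD. It had 16141, 15313 and 15105 CPM in the MCS libraries and 2504, 4199 and 1716 in the MCD libraries. The MCS libraries were tightly grouped, MCS 3 included, and the gene fell by 2.47 on the log2 scale (SE 0.38, adjusted p = 0.00329), a 5.53-fold drop. The sum over the Serpina3 genes went from 19209.7, 18309 and 16440 to 3477, 5551 and 2449 CPM (−2.23 ± 0.36, adjusted p = 0.00414). For the 3 abundant genes, the stretch that encodes the reactive centre loop is shown from the same annotation, since it is the part that meets the protease. Its length is 69 bases in Serpina3k (from coding base 1105) and 75 in Serpina3m and Serpina3n (from coding base 1099).
Serpina3k: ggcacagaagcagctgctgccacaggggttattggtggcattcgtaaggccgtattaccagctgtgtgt
Serpina3m: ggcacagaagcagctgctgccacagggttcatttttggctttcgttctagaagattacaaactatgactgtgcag
Serpina3n: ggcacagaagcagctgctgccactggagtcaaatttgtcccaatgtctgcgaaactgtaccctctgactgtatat
Over this stretch Serpina3m and Serpina3n were 66.7% identical, against 85.2% over their whole coding sequences.

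Serpina3n, an acute phase inhibitor of granzyme B and leukocyte elastase, had 2544, 2404 and 718 CPM in MCS 1, 2 and 3 and 590.2, 894 and 462 CPM in MCD 1, 2 and 3. The MCS 3 value lies among the MCD values, and this is the 1 called serpin whose diets overlap. Its log2 fold change was −1.54 ± 0.47 (adjusted p = 0.0447), and −0.16 (adjusted p = 0.879) with MCS 3 as the only MCS library. Serpina3n was 3.45-fold higher in MCS 1 and MCS 2 than in MCS 3, in the same libraries as Saa1 and Lcn2 (1361, 1135 and 15.2 CPM), whose part in the result was not tested. The call also ended without MCS 1, MCS 2, MCD 1 or MCD 3 (adjusted p = 0.144, 0.140, 0.139 and 0.162), with library size alone (0.0765), with a minimum count of 50 (0.0521), by limma-voom (0.0683) and on log2(TPM + 1) (−0.72, adjusted p = 0.169).

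The other Serpina3 genes did not pass the test or were too low for it. Serpina3m, 91.0% identical to Serpina3k in coding sequence, was at 566 ± 42.0 CPM on MCS and 351 ± 109 on MCD (SD, n = 3), with no overlap, a log2 fold change of −0.69 and an adjusted p of 0.0776. It passed without MCD 2 (0.0173) and by DESeq2 (0.0220), but the log2 fold change was −0.18 with library size alone (0.406) and −0.071 on log2(TPM + 1) (0.716). Serpina3g, an inhibitor of lysosomal cathepsins in blood cells, was at 7.73 ± 3.75 and 13.5 ± 10.4 CPM and Serpina3f at 3.53 ± 2.49 and 4.63 ± 3.46, and neither passed (adjusted p = 0.345 and 0.694). Both were highest in MCD 3, the library with the highest macrophage marker sum, and without MCD 3 their log2 fold changes went from 0.81 to −0.034 and from 0.40 to −0.40. Serpina3a, Serpina3b, Serpina3c and Serpina3i were too low to test. Serpina3i had 0, 0 and 3 counts on MCS and 5, 1 and 38 on MCD, a ratio of 9.79 on library size (95% counting interval 3.14 to 49.3) that rests mostly on MCD 3. Serpina3a had 3 counts on MCS and 15 on MCD in all (ratio 3.34, interval 0.944 to 18.0), Serpina3c 13 and 41, and Serpina3b counts in MCS 3 (6) and MCD 3 (13) alone. Serpina3a and Serpina3i met the rule for members only with their MCD counts, so their ratios describe counts and are not a test.

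The hormone carrier Serpina6, corticosteroid-binding globulin, had 339, 252 and 311 CPM on MCS and 169, 213 and 121 on MCD. It fell without overlap by 0.85 on the log2 scale (SE 0.23, adjusted p = 0.0303). The call ended without MCS 1, MCS 2, MCS 3 or MCD 1 (adjusted p = 0.117, 0.0623, 0.0745 and 0.102) with library size alone (−0.33, adjusted p = 0.141) and on log2(TPM + 1) (−0.21, adjusted p = 0.286). Serpina7, thyroxine-binding globulin and the clade A gene outside the cluster, was at 32.3 ± 13.6 CPM on MCS and 37.5 ± 6.94 on MCD and did not pass (adjusted p = 0.608), though it did on log2(TPM + 1) (0.91, adjusted p = 0.0467).

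Serpina12 encodes vaspin, an inhibitor of a tissue kallikrein that was first described in fat. It had 71.2, 71.3 and 61.2 CPM on MCS and 35.5, 15.5 and 15.4 on MCD. The diets were well separated and the log2 fold change was −1.62 ± 0.32 (adjusted p = 0.0119); without both libraries numbered 3 the adjusted p was 0.136, and with library size alone the log2 fold change was −1.06 (adjusted p = 0.0328). The fat markers Adipoq and Plin1 were near 0 in every library, with a highest sum of 0.165 CPM. Serpina11 had 156, 140 and 70.1 CPM on MCS and 32.1, 47.6 and 23.5 on MCD (−1.83 ± 0.36, adjusted p = 0.0109). Serpina11 was 2.12-fold lower in MCS 3 than the mean of the other MCS libraries, where 29 of 35 tested acute phase genes were also lower. MCS 3 still lay above every MCD library, and the Serpina11 log2 fold change was −1.13 on log2(TPM + 1) (adjusted p = 0.0128).

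For Serpina10, the protein Z-dependent inhibitor of coagulation factors, the outcome rested on MCS 3. Its values were 438, 401 and 166 CPM on MCS and 206, 230 and 161 on MCD, so that MCS 3 lay with the MCD libraries and the test did not pass (−0.75 ± 0.34, adjusted p = 0.135). Without MCS 3 the log2 fold change was −1.08 (adjusted p = 0.0181), without both libraries numbered 3 it was −0.95 (adjusted p = 0.000959), and with MCS 3 as the only MCS library it was 0.24. Serpina5, the protein C inhibitor, and Serpina9, a serpin of B cells, were too low to test. Serpina5 had 0, 1 and 0 counts on MCS and 18, 24 and 6 on MCD (ratio 32.0, counting interval 5.48 to 1291). Serpina9 had 6, 2 and 6 on MCS and 0 in all MCD libraries. With 3 counts set for the MCD group the Serpina9 ratio of MCS over MCD was 6.99, with no interval. Serpina9 met the rule for members through its MCS counts alone, and Serpina5 met it only with its MCD counts. Both ratios describe counts and are not a test.

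Of the serpins that restrain clotting and clot lysis, Serpinf2 fell, and Serpinc1 and Serpind1 did not pass the threshold. Serpinc1, antithrombin, the main inhibitor of thrombin and factor Xa, had 2328, 2371 and 2248 CPM on MCS and 1541, 1768 and 908 on MCD. The diets did not overlap, but the log2 fold change of −0.72 ± 0.29 did not pass (adjusted p = 0.0968). Serpind1, heparin cofactor II, an inhibitor of thrombin, had 601, 601 and 583 CPM on MCS and 428, 499 and 286 on MCD (−0.56 ± 0.23, adjusted p = 0.111), and its log2 fold change was 0.070 on log2(TPM + 1). Their target prothrombin, F2, had a log2 fold change of −0.83 ± 0.30 that did not pass either (adjusted p = 0.0721). Without MCD 2, the highest MCD library for both serpins, Serpinc1 and Serpind1 passed (adjusted p = 0.0312 and 0.0330), as they did by DESeq2 (0.0168 and 0.0438). For Serpinc1 the log2 fold change was −0.21 with library size alone (0.366) and −0.10 on log2(TPM + 1) (0.708).

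Serpinf2, α2-antiplasmin, the fast inhibitor of plasmin, had 1073, 1056 and 811 CPM on MCS and 567, 684 and 373 on MCD. It fell without overlap by 0.86 on the log2 scale (SE 0.27, adjusted p = 0.0463). The gene of its target, plasminogen (Plg), fell beside it, from 3811, 3931 and 3149 to 1699.7, 2229.9 and 1129.9 CPM (−1.11 ± 0.30, adjusted p = 0.0293). The Serpinf2 call ended in each fit without MCS 1, MCS 2, MCS 3, MCD 1 or MCD 3 (adjusted p = 0.154, 0.150, 0.0562, 0.133 and 0.0644) with library size alone (−0.34, adjusted p = 0.140) and on log2(TPM + 1) (−0.23, adjusted p = 0.235). Serpinf1, pigment epithelium-derived factor, which inhibits no protease, was at 742 ± 94.7 CPM on MCS and 417 ± 137 on MCD, just outside the threshold (−0.83 ± 0.27, adjusted p = 0.0540), and passed without MCD 2 (0.0108) and by DESeq2 (0.00739). Its log2 fold change was −0.33 with library size alone (0.198) and −0.20 on log2(TPM + 1) (0.425).

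Serping1, the C1 inhibitor, which blocks the first proteases of complement and plasma kallikrein, had 1904, 1897 and 1073 CPM on MCS and 587, 862 and 523 on MCD. It fell by 1.31 on the log2 scale (SE 0.31, adjusted p = 0.0177), with every MCD library under MCS 3. MCS 3 was 1.77-fold lower than the mean of the other MCS libraries, and 29 of 35 tested acute phase genes were also lower there. With MCS 3 as the only MCS library the log2 fold change was −0.72. Without MCS 1, MCS 2 or MCD 1 the adjusted p was 0.0760, 0.0767 and 0.0827, and the log2 fold change was −0.77 with library size alone (0.0271) and −0.62 on log2(TPM + 1) (0.0475).

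Serpine2, protease nexin, an inhibitor of thrombin at cell surfaces, was spread widely within each diet, at 15.02 ± 5.62 and 12.1 ± 9.29 CPM, and did not pass (−0.30 ± 0.61, adjusted p = 0.752).

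Serpinh1 encodes the collagen chaperone of the endoplasmic reticulum known as heat shock protein 47. It had 10.5, 10.05 and 7.94 CPM on MCS and 28.9, 13.1 and 44.5 on MCD. MCD 2 lay close to the MCS libraries and MCD 3 far above, and the gene rose by 1.61 on the log2 scale (SE 0.41, adjusted p = 0.0287). Of 30 tested collagen and collagen-processing genes, 14 rose and 2 fell, against 14.8% and 9.97% of all tested genes. Among them Col4a1 rose by 2.002 ± 0.28 (adjusted p = 0.00240) and Col5a2, of a fibrillar collagen, by 3.22 ± 0.61 (adjusted p = 0.0115), while Mia3, a collagen export receptor, and Bmp1, a procollagen protease, fell by 0.54 and 0.86 (adjusted p = 0.0397 and 0.0324). The stellate cell marker sum took the same order over the MCD libraries, at 858, 350.0 and 1660.0 CPM in MCD 1, 2 and 3, and its part in the result was not tested. The Serpinh1 call ended without MCS 1, MCS 2, MCS 3 or MCD 1 (adjusted p = 0.0790, 0.0894, 0.0645 and 0.0785), without both libraries numbered 3 (1.03, adjusted p = 0.155) and by limma-voom (0.0623), and the collagen count fell to 5, 2, 4 and 7 genes higher without MCS 1, MCS 2, MCD 1 and MCD 3.

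The clade B serpins act inside cells, and of 5 tested members 3 rose and 0 fell. All 5 were under a mean of 100 CPM, where 15.8% of all tested genes rose and 8.04% fell. Serpinb6a, an inhibitor of cathepsin G, had 12.7, 14.96 and 18.3 CPM on MCS and 59.8, 55.4 and 100.2 on MCD. The lowest MCD library stood far above the highest MCS library, and the log2 fold change was 2.23 ± 0.25 (adjusted p = 0.00104). Serpinb6b, 85.7% identical to it in coding sequence, had 1.61, 2.04 and 2.32 CPM on MCS and 18.9, 14.0 and 31.8 on MCD. That is a 10.8-fold rise (3.44 ± 0.33, adjusted p = 0.000485), the largest among the 28 tested serpins. Their sum rose from 14.3, 17.0 and 20.6 to 78.7, 69.4 and 131.9 CPM (2.43 ± 0.26, adjusted p = 0.000845).

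Serpinb9, the inhibitor of granzyme B with which lymphocytes and other cells shield themselves, had 10.8, 11.7 and 15.7 CPM on MCS and 24.8, 23.2 and 27.2 on MCD. The rise was modest in size and tight in spread (0.97 ± 0.17, adjusted p = 0.00573), and it was 1.53 with library size alone (adjusted p = 0.00398). With its relatives added, Serpinb9 counts went from 10.8, 11.7 and 15.8 to 26.4, 23.7 and 28.9 CPM (1.04 ± 0.18, adjusted p = 0.00483). The relative Serpinb9b, 85.3% identical in coding sequence, was too low to test, at 0, 0 and 2 counts on MCS and 25, 8 and 46 on MCD (ratio 26.4, counting interval 7.06 to 221). Serpinb9b met the rule for members only with its MCD counts, so its ratio describes counts and is not a test. Granzyme B itself (Gzmb) was under 1 CPM in every library and was not tested, as was neutrophil elastase (Elane), the target of α1-antitrypsin, at no more than 0.378 CPM.

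The other clade B genes did not pass or were too low to test. Serpinb8, an inhibitor of furin, was at 3.55 ± 0.504 CPM on MCS and 4.70 ± 1.04 on MCD (adjusted p = 0.317), and passed as higher with library size alone (0.94, adjusted p = 0.0433) and on log2(TPM + 1) (0.67, adjusted p = 0.0403). Serpinb1a, an inhibitor of neutrophil elastase and cathepsin G, had 2.01, 1.51 and 11.7 CPM on MCS and 2.70, 1.58 and 2.93 on MCD, so that MCS 3 alone was high, and the Serpinb1 sum did the same at 2.01, 1.51 and 12.1 against 2.88, 1.58 and 3.27 CPM. Their log2 fold changes of −1.08 and −1.02 did not pass (adjusted p = 0.321 and 0.364), and without MCS 3 they were 0.43 and 0.53. Serpinb1b had 2 counts on MCS and 9 on MCD, Serpinb1c 5 on each diet, and Serpinb12 0 on MCS and 11 on MCD. With 3 counts set for the MCS group the Serpinb12 ratio was 2.45, with no interval. Serpinb12 met the rule for members through its MCD counts alone. Serpini1, neuroserpin, an inhibitor of tissue plasminogen activator in neurons and the single clade I gene here, had 4, 2 and 6 counts on MCS and 5, 4 and 19 on MCD and was not tested.

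Within the MCD diet the 2 directions were ordered oppositely over the libraries. Of the 12 serpins that fell, 12 were lowest in MCD 3 and 11 highest in MCD 2 in CPM, the exception being Serpina12. The near-identical Serpina1 copies are among them, and the same share over all tested genes was not counted. This order depends on scaling, since the TMM factors were 1.21, 1.04 and 1.41 in MCD 1, 2 and 3 and so lower MCD 3 most. In TPM, Serping1 was lowest in MCD 1 (722, 885 and 767) and Serpina12 in MCD 2 (20.9, 7.62 and 10.8). All 5 that rose were highest in MCD 3. The hepatocyte marker sum was 76943, 96294 and 59577 CPM in MCD 1, 2 and 3, and the macrophage marker sum 2086.5, 1635 and 3803 CPM, and their part in the serpin changes was not tested. Single hepatocyte markers ran from −1.39 (Tat) to 1.42 (Cyp3a11) in log2 fold change, with Alb at −0.038 (adjusted p = 0.951). The plot of each gene against its own mean sets these libraries side by side.

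**Figure D5:**
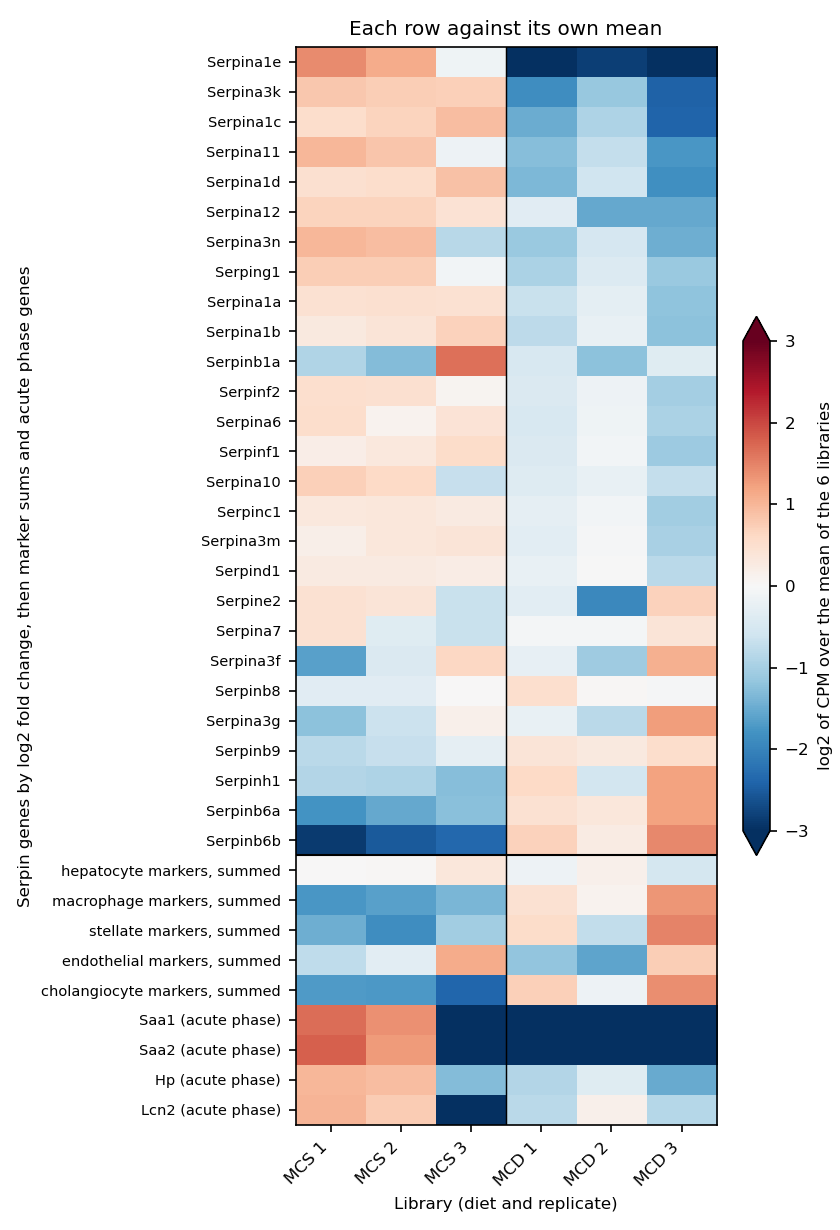
Each row is 1 of 27 tested serpins, ordered from the most negative to the most positive log2 fold change, or below the line a marker sum or an acute phase gene; each column is a library, and colour gives the log2 of CPM over the row's mean of 6 libraries, capped at 3 on either side. Serpina1e, Serpina3n, Serpina7, Serpina10, Serpina11, Serpine2 and Serping1 are over 1.5-fold lower in MCS 3 than the mean of MCS 1 and MCS 2. So are Saa1, Saa2, Hp and Lcn2, while Serpina3k is nearly level over the MCS libraries and Serpina1c is highest in MCS 3.

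Levels of different genes can be compared only per length, for which the deposited TPM values were used. On MCS the highest serpins were Serpina1c (12819 ± 2328 TPM), Serpina1b (10700.1 ± 2079.5), Serpina3k (10326 ± 457) and Serpina1e (10148 ± 4562), followed by Serpina1a (7816 ± 310.0), Serpina1d (5402 ± 1128) and Serpinc1 (2911 ± 61.7; SD, n = 3). The ± SD ranges of neighbours overlapped from Serpina1c down to Serpina1a, and those of Serpina1a, Serpina1d and Serpinc1 did not. On MCD the order was Serpina1b (7396 ± 1336 TPM), Serpina1a (5448 ± 757), Serpina1c (4199 ± 1328), Serpina3k (2839 ± 791) and Serpinc1 (2752 ± 525), with overlapping ranges between all neighbours. Serpina1e went from 4th to 11th place, at 620 ± 376 TPM, and Serpinb6a from 19th to 16th, at 15.1 ± 4.07 and 114 ± 58.0 TPM. Serpinb6b moved from 27th to 20th place.

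Proteases, cofactors and receptors that serpins act on or with were counted from a list of 44 genes, of which 32 were tested. Of these, 8 rose and 8 fell, against 14.8% and 9.97% of all tested genes, and the median log2 change was −0.57. The smallest p among those that rose were those of St14, matriptase, a membrane protease of epithelia (1.15, 1.44 and 0.496 CPM on MCS against 11.7, 8.46 and 15.01 on MCD; 3.53 ± 0.40, adjusted p = 0.000957), and Ctsk, cathepsin K, a collagen-cutting lysosomal protease (3.74 ± 0.42, adjusted p = 0.00103). Among those that fell they were those of F7, coagulation factor VII (116, 112 and 109 against 42.2, 62.7 and 32.9 CPM; −1.29 ± 0.22, adjusted p = 0.00521), and Hgfac, the activator of hepatocyte growth factor (−1.16 ± 0.24, adjusted p = 0.0107). Cathepsin L (Ctsl), a target of several intracellular serpins, and angiotensinogen (Agt), a serpin by fold that inhibits nothing, did not pass (0.50 ± 0.21 and −0.80 ± 0.30, adjusted p = 0.110 and 0.0793). Without MCS 1, MCS 2 or MCD 1 in turn 2 protease genes fell, without MCD 2 17 and without MCD 3 5.

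Of 35 tested acute phase genes, 8 fell, 2 rose and 25 did not pass, and the median log2 change was −1.01. Among all tested genes, 9.97% fell and 14.8% rose. The negative acute phase genes Alb, Ttr, Trf, Rbp4, Ahsg and Apoa1 are counted here, all among those that did not pass. Mbl1 and Mbl2, the mannose-binding lectins of complement, fell by 1.27 and 1.20 (SE 0.26 and 0.28, adjusted p = 0.0103 and 0.0173), and Il1rn, an interleukin receptor antagonist, and Steap4, a metalloreductase, rose by 1.69 ± 0.22 and 1.12 ± 0.18 (adjusted p = 0.00161 and 0.00384). This count rested on single libraries: 18 genes fell without MCS 3, 1 without MCS 1, MCS 2 or MCD 1 in turn, and 3 without MCD 3.

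In the authors' deposited table, whose fold changes are ratios of mean TPM, 16 of the 39 genes had an FDR under 0.05, 9 with a negative and 7 with a positive log2 fold change. Of the 17 genes called here, 14 were among them in the authors' deposited table. The 3 that were not are Serpina1b (deposited log2 fold change −0.53, FDR 0.0639), Serpina6 (−0.22, FDR 0.384) and Serpinf2 (−0.23, FDR 0.340). The authors' deposited table also gave an FDR under 0.05 for Serpina5 (5.42, FDR 0.00495) and Serpinb9b (5.51, FDR 0.00132), which had too few counts to be tested here. For Serpina1e and Serpinb6b the deposited table gave log2 fold changes of −4.03 and 4.17.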

How the data were processed

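Samples were grouped by the diet in their titles, 3 libraries each. Per the file headers, the deposited table gives each gene's count and TPM in each library beside the authors' mean TPM per diet, and the authors' log2 fold change, p-value and FDR, from a test that no source used here names. Deposited counts are integers; because TPM exceeds 0 in 64 entries whose count is 0, they were taken as estimated counts rounded by the authors. The submitters' processing notes name RSEM, StringTie 1.3.1, HISAT2 2.1.0, Bowtie2 2.2.8 and fastp 0.18.0, without roles, and genome build GRCm39. Per the labels' protocols mRNA was captured on beads, and strand is not stated.

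Counts were tested with edgeR 4.0.16 in R 4.3.3 (TMM, filterByExpr with a minimum count of 10, robust quasi-likelihood, diet as the only term, adjusted p under 0.05 over 12599 genes); SE is the log2 fold change over the square root of F. Copies of a cluster were summed into 1 row of the table and refitted, Serpina1 with 6 rows. Alternatives used limma 3.58.1 and DESeq2 1.42.0. No 2 replicates agreed within counting noise (chi-square per degree of freedom at least 13.8). Ratios of summed counts of genes too low to test have exact 95% binomial intervals on TMM-scaled library sizes, for counting error only. Where 1 diet has a count of 0, the ratio to 3 counts has no interval. Most of these genes reach the total of 10 through 1 diet, so such a ratio describes counts and is not a test. The scripts were tested on simulated data. The members, the protease, collagen and acute phase lists and the markers were chosen with earlier results of these data known. By the rule for names, every member is named except 1 that is counted but not reported here, each other called member with a mean of at least 1 CPM is given by library, and each list gives the 2 called genes of smallest p in each direction, beside main targets. Coding sequences came from GENCODE M21 and promoters from RefSeq, both on GRCm38.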

Additional observations from a re-analysis of the deposited data

How the results depend on the processing

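Of the 17 called serpins, 9 kept their call in each of 15 other fits read at the same threshold (among them Serpinb6b, Serpinb6a, Serpina3k, Serpina1e, Serpina1c, Serpinb9, Serpina11 and Serpina12) and 0 changed direction. At an adjusted p under 0.01, 8 of the 17 calls held, and Serpina11 (0.0109) and Serpina12 (0.0119) lost theirs. The cause of the changes below was not tested. Alternatives that leave out both libraries numbered 3, or MCS 1 and MCS 2, were chosen after seeing the data. The serpins lower on MCD numbered 12, and 4 at an adjusted p under 0.01, 7 on log2(TPM + 1), 7 on log2(TPM + 0.1) and 5 to 16 with 1 library left out; those higher numbered 5, and 4 to 6 with 1 library left out. Without MCS 1 and MCS 2, which leaves 1 MCS library and so fewer samples, 0 serpins were lower and 0 higher, 74 genes were called in all, and 0 protease, 0 collagen and 0 acute phase genes were lower and 1, 0 and 1 higher. There the summed copies gave −1.82 for Serpina1 (adjusted p = 0.218), −2.12 for Serpina3 (0.161), 2.16 for Serpinb6 (0.106) and 0.72 for Serpinb9 (0.203). Of the 17 calls, 15 held without both libraries numbered 3 and 14 with library size alone.

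Over all genes 3117 were called: 1058 at an adjusted p under 0.01, 5443 with library size alone (5095 higher and 348 lower), 5669 on log2(TPM + 1) (5401 and 268), 5974 on log2(TPM + 0.1) (5692 and 282), and 1347 to 4435 with 1 library left out, against 1861 higher and 1256 lower in the reported fit. Protease genes lower numbered 8, and 1 at an adjusted p under 0.01, 18 by DESeq2, 3 on log2(TPM + 1), 3 on log2(TPM + 0.1), 14 without both libraries numbered 3 and 2 to 17 with 1 library left out. Collagen genes higher numbered 14, and 1 at an adjusted p under 0.01, 8 with no count filter, 7 by limma-voom, 6 without both libraries numbered 3 and 2 to 17 with 1 left out. Collagen genes lower numbered 2, and 0 at an adjusted p under 0.01, 0 with library size alone, 0 on log2(TPM + 1), 0 on log2(TPM + 0.1), 4 without both libraries numbered 3 and 0 to 4 with 1 left out. Acute phase genes lower numbered 8, and 0 at an adjusted p under 0.01, 16 by DESeq2, 3 on log2(TPM + 1), 4 on log2(TPM + 0.1), 20 without both libraries numbered 3 and 1 to 18 with 1 left out.

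The summed Serpina1 log2 fold change of −1.83 was −1.25 on log2(TPM + 1) (adjusted p = 0.0656), −1.25 on log2(TPM + 0.1) (0.0550) and −2.18 to −1.58 with 1 library left out. Directions turned only for values that had not passed the test. The Serpinb1 sum (−1.02) was 0.032 on log2(TPM + 0.1), 0.33 without both libraries numbered 3 and −1.46 to 0.53 with 1 left out. Serpinb1a (−1.08) was 0.27 without both libraries numbered 3 and −1.52 to 0.43 with 1 left out. Serpina7 (0.21) was −0.17 without both libraries numbered 3 and −0.012 to 0.60 with 1 left out. Serpina3g (0.81) ranged from −0.034 to 1.25 and Serpina3f (0.40) from −0.40 to 1.10 with 1 left out, and Serpina3f was −0.44 without MCS 1 and MCS 2. Serpina10 (−0.75) was 0.036 on log2(TPM + 1), 0.037 on log2(TPM + 0.1) and 0.24 without MCS 1 and MCS 2. Serpine2 (−0.30) was 0.37 with library size alone, 0.12 on log2(TPM + 1), 0.083 on log2(TPM + 0.1), 0.49 without MCS 1 and MCS 2 and −1.06 to 0.10 with 1 left out. Serpind1 (−0.56) was 0.070 on log2(TPM + 1) and 0.070 on log2(TPM + 0.1).

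The titles give both diets the replicate numbers 1 to 3, but nothing ties same-numbered libraries, and their deviations from the diet means correlated at 0.0873, 0.153 and 0.229. MCS 2 and MCS 3 each correlated best with the MCD library of their own number, but MCS 1 correlated best with MCD 2 (0.137). As no label ties them, the numbers were not taken as pairs. With the replicate block 17 of 17 serpin calls held, 3283 genes were called in all, the Serpina1 sum was −1.90 (adjusted p = 0.00836), and 1 collagen gene was lower.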
